A study of Mus musculus with 9 samples.

Results

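Collagen genes were taken as the rows of the count table whose identifier maps to a protein-coding mouse gene with a symbol of the form Col, number, a, number. This rule, which uses no measured value, found 44 of 49671 gene rows. By the kind of collagen they encode, 11 were fibrillar, 6 basement membrane, 9 FACIT (fibril-associated collagens with interrupted triple helices), 4 transmembrane and 1 anchoring. The others were the 6 chains of type VI (beaded filaments), the 3 chains of types VIII and X (network forming), the 2 multiplexins, and Col26a1 and Col28a1. RNA came from mouse skin cells sorted for the integrin alpha-6 chain (CD49f) and against CD45, a surface protein of leukocytes. The samples were 5 with the Flg genotype wt/wt and 4 with ko/ko. Flg encodes filaggrin, which packs keratin in the outermost epidermis, and the study asked how its loss alters gene expression in keratinocytes. The sources used here do not give strain, age, sex or the kind of Flg allele, and no other allele or agent is named for either group. Every sample carries an identifier of its own, but nothing says whether the samples came from separate animals. The p-values therefore weigh the genotype difference against the spread between these samples, which may not be a spread between animals.

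A collagen is made of 3 alpha chains wound into a triple helix, and in some types, such as I, IV and VI, these come from different genes. Fibroblasts of the dermis are known for types I, III, V, VI, XII and XIV, and keratinocytes for type XVII, which spans their membrane in hemidesmosomes, and type VII, which forms the fibrils that anchor the epidermis to the dermis. Type IV builds basement membranes, and types II, IX, X and XI are known from cartilage.

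Levels are in CPM, a gene's counts as a share of its library, scaled with TMM, which corrects for composition. Library totals were 15601859 to 23200440 counts, so that 1 count was worth 0.0431 to 0.0641 CPM of a library total. Flg had 0 to 6 counts in each library, too few to check the genotype labels. Among markers of cell types, 10 basal keratinocyte genes summed to 1535 to 3228 CPM per library, 10 fibroblast genes to 12432 to 27629 CPM, and 8 cartilage and tendon genes to 6563 to 13441 CPM. The label calls the cells epidermal, while the summed fibroblast markers were above the keratinocyte markers in all 9 libraries. Dcn alone, at 10868 to 21870 CPM, made up most of the fibroblast sum. Without Dcn, the fibroblast sum was not above the keratinocyte sum in every library. The values below describe the sorted mixture, in which fewer cells of a type and less RNA per cell cannot be told apart.

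All 44 collagen genes together took 0.817% to 2.22% of the counts of a library. Of the 44 rows, 5 had a mean of 1000 CPM or more over the 9 libraries, 12 had 100 to 1000, 12 had 10 to 100, 11 had 1 to 10, and 4 had under 1. The 5 highest by mean CPM were Col8a1, Col3a1, Col1a2, Col6a1 and Col1a1. Per kilobase of exon, the order from the top was Col8a1, Col6a1, Col3a1, Col1a1, Col1a2, Col6a2, Col2a1 and Col9a3. At the bottom were Col26a1 with a mean of 0.522 CPM, Col22a1 with 0.616, Col4a6 with 0.626 and Col6a4 with 0.450. Col6a4 did not pass the filter on low counts, and the other 43 were tested.

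**Figure D1:**
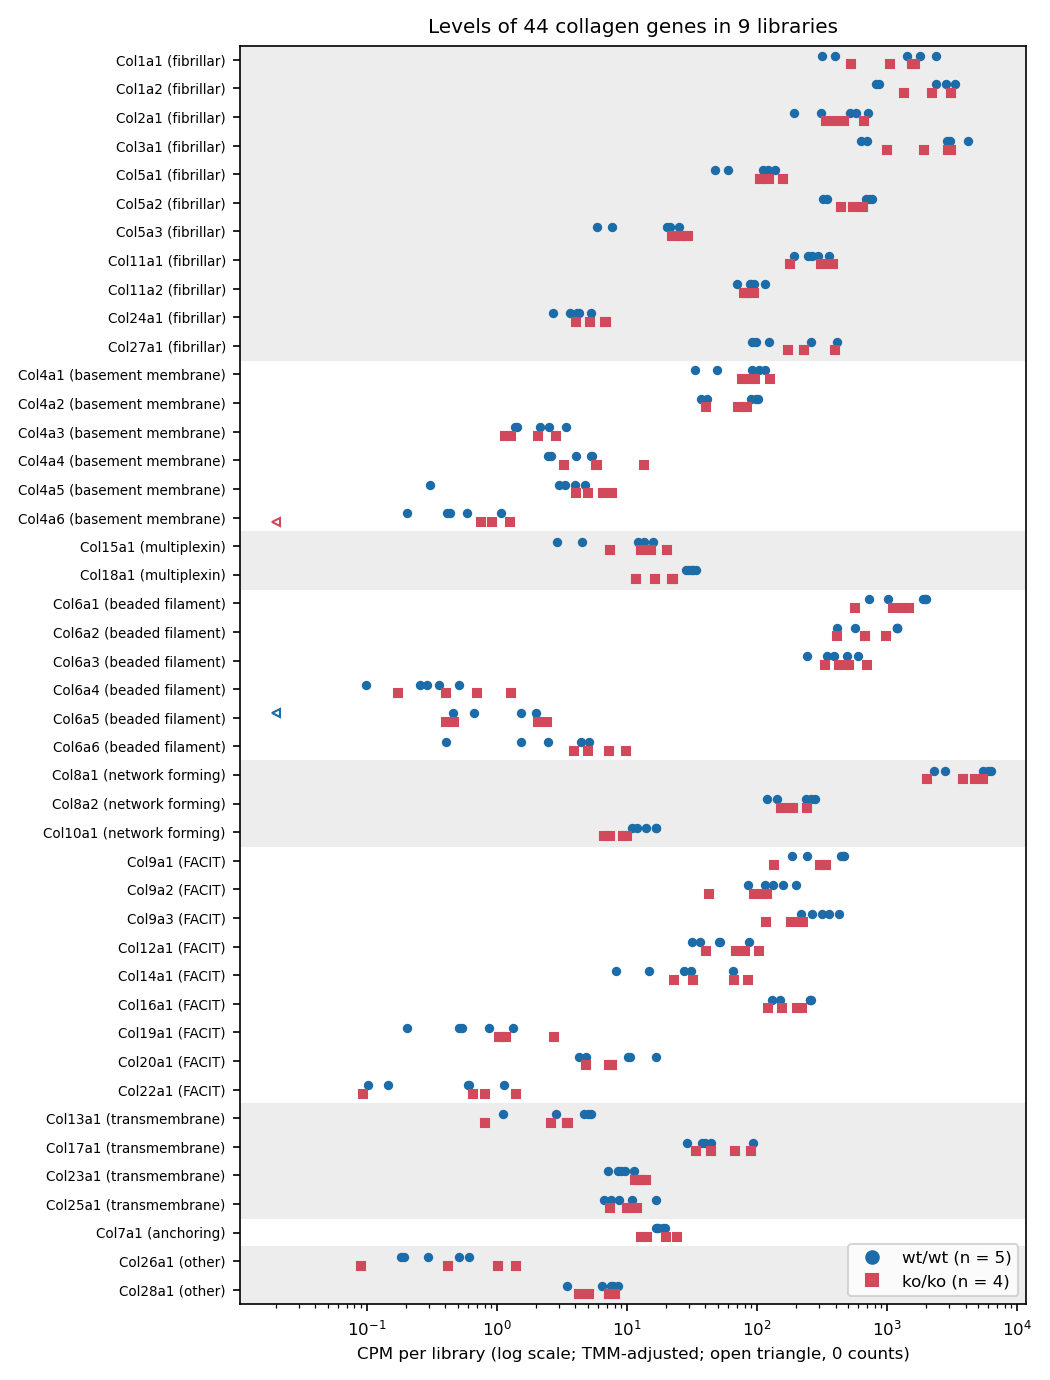
CPM of the 44 collagen genes in each of 9 libraries on a log axis, ordered by class; blue circles are the 5 wt/wt and red squares the 4 ko/ko libraries, and an open triangle marks 0 counts. The levels span from Col8a1, with 2004 to 6243 CPM, to genes near or under 1 CPM, and the groups overlap for nearly all genes.

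Col8a1 (mm10 chromosome 16, 57624258 to 57754737, minus strand) encodes the alpha-1 chain of type VIII, a short-chain collagen that forms hexagonal networks. It had 2768, 2301, 6243, 5404 and 5926 CPM in wt/wt replicates 1 to 5 and 2004, 3833, 4754 and 5493 CPM in ko/ko replicates 1 to 4. It ranked 20 among all genes by mean CPM, and made up 22.0% to 31.1% of the collagen CPM of a library. The low libraries were wt/wt 1, wt/wt 2 and ko/ko 1, and the groups overlapped. Its partner chain Col8a2 stood at 0.0453 to 0.0861 of the level of Col8a1 per kilobase.

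Collagen levels varied widely among the libraries of one genotype. Col1a1 was lowest in wt/wt 1, wt/wt 2 and ko/ko 1, and 19 of the 42 other tested collagen genes (45.2%) had these same 3 as their lowest libraries. Among the 18392 genes tested that are not collagens the share was 7.02%. The 19 were Col1a2, Col2a1, Col3a1, Col5a1, Col5a2 and Col11a1, the chains Col4a1, Col4a2, Col6a1, Col6a2, Col6a3, Col6a5, Col8a1, Col8a2 and Col9a1, and Col12a1, Col14a1, Col15a1 and Col16a1. Within a group, the SD of log2 CPM (with 0.5 CPM added) had a median of 0.61 over the 43 collagen genes and 0.36 over all genes tested. It was 1.12 for Col1a1 and 1.09 for Col3a1, but 0.19 for Col23a1 and 0.28 for Col7a1.

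The titles carry a sample number whose meaning is not stated, and these 3 libraries have the 3 lowest numbers of the 9, so that they form a run across both genotypes. Whether the number marks a batch cannot be told from the labels. The low libraries hold 1 ko/ko library only, too few for a comparison among themselves.

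Some marker sums were also lowest in these 3 libraries and others were not. The cartilage and tendon sum was 8671, 6563 and 8982 CPM in wt/wt 1, wt/wt 2 and ko/ko 1 and 10028 to 13441 CPM in the other 6 libraries. Within that list Fmod and Tnmd were lowest in these 3 libraries, and the other genes were not. Acan had 358 CPM in wt/wt 1 and Chad 3482 CPM in ko/ko 1, each above most other libraries. The mural cell sum (8 genes) was 174, 165 and 219.8 CPM there and 263.9 to 441 CPM in the other 6, and of its genes only Des followed that order. The fibroblast sum was 13761, 12432 and 15749 CPM there, but also 15700 CPM in ko/ko 3, and 21542 to 27629 CPM in the other 5. None of the 10 fibroblast genes had an unadjusted p under 0.05 between genotypes in edgeR, beside 15.3% of all genes tested. The blood endothelial sum (8 genes) was highest in these 3 libraries, at 351, 292 and 331 CPM against 185 to 289 CPM in the others. The lymphatic endothelial sum (5 genes) was highest in wt/wt 1 and 2, at 780.4 and 722 CPM, and 151 CPM in ko/ko 1, and the basal keratinocyte sum was highest in wt/wt 2, ko/ko 3 and ko/ko 1. Sparc, a collagen-binding matrix protein, had 4577, 3790 and 5465 CPM in those 3 libraries and 9740 to 14273 CPM in the other 6. The part of cell composition in the collagen levels was not tested.

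Col27a1 (chromosome 4, 63214004 to 63334991, plus strand), a fibrillar collagen known from cartilage, ran the other way. It had 410.2, 259, 124, 98.2 and 90.9 CPM in wt/wt replicates 1 to 5 and 399, 171, 229 and 229 CPM in ko/ko replicates 1 to 4. Its 3 highest libraries were the 3 lowest of Col1a1, and it was the only one of 42 collagen genes (2.38%) with that order, against 6.63% of the other genes.

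**Figure D2:**
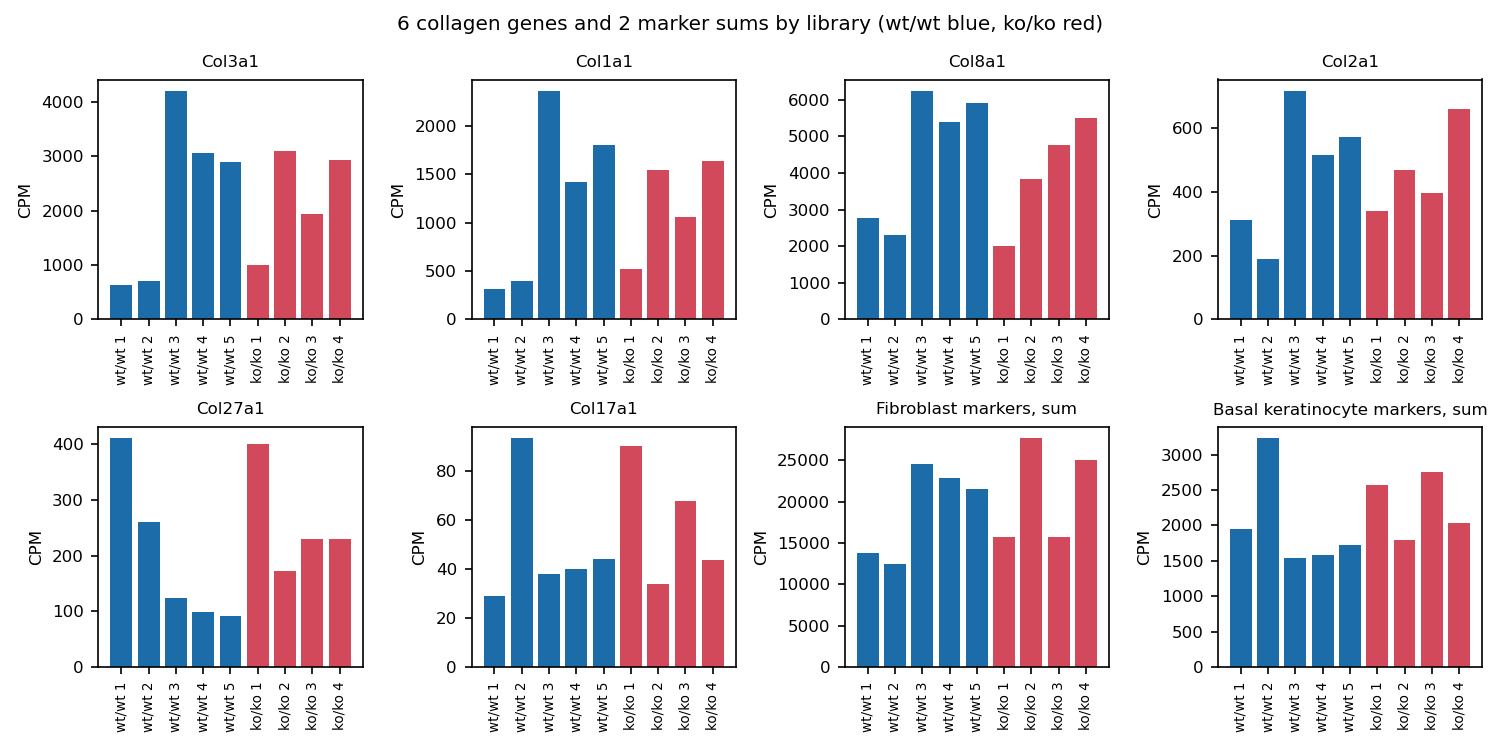
CPM of 6 collagen genes and the sums of 2 marker lists in each library (bars from 0; blue wt/wt, red ko/ko; each panel has its own scale). Col3a1, Col1a1, Col8a1 and Col2a1 are low in wt/wt 1, wt/wt 2 and ko/ko 1, Col27a1 is high there, and Col17a1 is highest in wt/wt 2, ko/ko 1 and ko/ko 3, as is the basal keratinocyte sum.

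The sequences just before the start sites of genes with contrasting library patterns are given here as context for these levels. Shown are the 150 bases before the annotated start, none of them in an exon, from RefSeq promoter windows of GRCm38.p6, for Col3a1 and Col8a1 (low in the 3 libraries), Col27a1 (high in them), Col7a1 (steady), and Col10a1 and Col23a1, which are taken up with the comparison of genotypes. For Col27a1 the RefSeq start lies inside the gene as the count table places it, downstream of the gene's first base there. The sequences read 5′ to 3′ on the strand of the gene, and capitals mark matches on either strand to the TATA-box letters TATAA, to the letters CCAAT, or to the GC-box letters GGGCGG.
Col3a1 (chr1:45311388-45311537, plus strand): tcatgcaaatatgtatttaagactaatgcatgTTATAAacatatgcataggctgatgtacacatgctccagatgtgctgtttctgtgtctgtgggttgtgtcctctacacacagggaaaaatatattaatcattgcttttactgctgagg
Col8a1 (chr16:57754738-57754887, minus strand): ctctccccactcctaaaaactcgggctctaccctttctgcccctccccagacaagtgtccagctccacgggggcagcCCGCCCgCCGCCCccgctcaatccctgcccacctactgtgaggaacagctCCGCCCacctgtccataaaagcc
Col27a1 (chr4:63215262-63215411, plus strand): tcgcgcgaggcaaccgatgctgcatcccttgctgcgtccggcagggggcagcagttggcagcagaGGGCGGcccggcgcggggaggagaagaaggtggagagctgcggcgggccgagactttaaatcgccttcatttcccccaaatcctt
Col7a1 (chr9:108953436-108953585, plus strand): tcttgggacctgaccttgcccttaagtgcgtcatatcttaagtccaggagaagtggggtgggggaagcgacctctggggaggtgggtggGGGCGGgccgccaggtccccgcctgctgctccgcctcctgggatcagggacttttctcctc
Col10a1 (chr10:34389831-34389980, plus strand): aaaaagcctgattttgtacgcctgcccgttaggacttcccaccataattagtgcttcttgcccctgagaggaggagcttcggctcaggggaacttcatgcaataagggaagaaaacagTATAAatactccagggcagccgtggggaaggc
Col23a1 (chr11:51289770-51289919, plus strand): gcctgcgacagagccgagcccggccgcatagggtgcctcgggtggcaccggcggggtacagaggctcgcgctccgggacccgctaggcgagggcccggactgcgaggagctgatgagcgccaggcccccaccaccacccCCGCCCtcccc
In Col3a1 the capitals are 1 site that reads TTATAA on both strands. Windows of 300 bases (250 before and 50 after the start) were matched for 35 of the 44 genes, 38 windows in all. TATAA lay in 18.4% of the 38 windows and in 24.9% of all 32851 windows. CCAAT lay in 34.2% against 37.4%, and GGGCGG in 60.5% against 35.7%. The window of Col8a1 held 4 matches to GGGCGG and that of Col3a1 none. A match describes letters and not a site in use.

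Between genotypes, edgeR's quasi-likelihood test with Benjamini-Hochberg adjustment over all 18435 genes called 0 of 43 collagen genes at an adjusted p under 0.05, where 0.00542% of all genes tested were called. At an unadjusted p under 0.05 there were 4 of 43 (9.3%), 1 higher and 3 lower in ko/ko, beside 15.3% of all genes, 8.86% higher and 6.42% lower. The share of collagen genes was thus no larger than the background. The median log2 fold change, ko/ko over wt/wt, was 0.01 for the 43 collagen genes, 22 positive and 21 negative, and -0.03 for all genes tested. Libraries of the 2 genotypes did not overlap for 3 of 43 (6.98%), 1 higher and 2 lower in ko/ko, beside 6.25% of all genes, 3.51% higher and 2.74% lower. DESeq2 called 3 of 43, beside 3.46% of all genes, and limma voom with sample weights called 4, beside 9.77%.

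**Figure D3:**
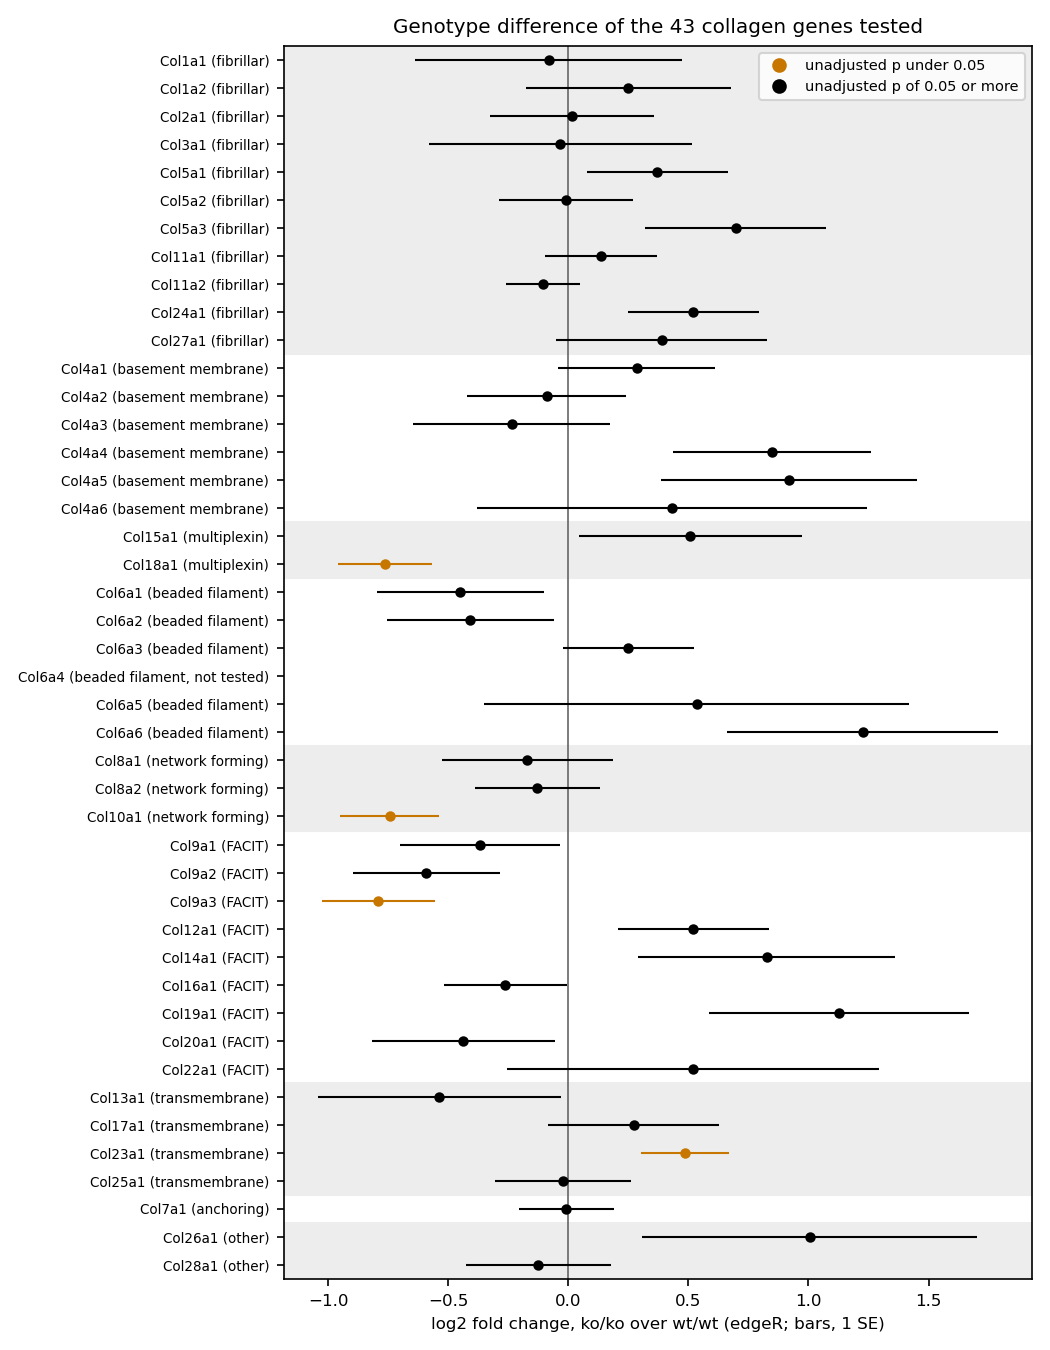
Log2 fold change of the 43 tested collagen genes, ko/ko over wt/wt, with bars of 1 SE, by class. The 4 genes in orange (Col18a1, Col10a1, Col9a3 and Col23a1) had an unadjusted p under 0.05, and none passed the adjusted threshold.

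Among the fibrillar collagens, 0 of 11 had an unadjusted p under 0.05, beside 15.3% of all genes. Some of them build the fibrils of the dermis, and others, such as type II, are known from cartilage. The wt/wt libraries had a class sum of 7297 ± 4000 CPM (SD, n = 5), and the ko/ko libraries one of 7681 ± 2535 CPM (SD, n = 4). Col1a1 (chromosome 11, 94936224 to 94953042, plus strand) encodes the alpha-1 chain of type I, and had 315, 394, 2359, 1424 and 1801 CPM in wt/wt 1 to 5 and 522, 1545, 1054 and 1633 CPM in ko/ko 1 to 4. Col1a2 (chromosome 6, 4504814 to 4541544, plus strand), the other type I chain, had 866, 822, 3330, 2377 and 2829 CPM in wt/wt and 1349, 3098, 2191 and 3080 CPM in ko/ko. Each ko/ko library lay within the wt/wt range for both. Col3a1 (chromosome 1, 45311538 to 45349706, plus strand), the type III chain, had 627, 703, 4197, 3059 and 2884 CPM in wt/wt and 999, 3098, 1932 and 2936 CPM in ko/ko. Log2 fold changes were -0.08 (SE 0.56) for Col1a1, 0.25 (SE 0.43) for Col1a2 and -0.03 (SE 0.55) for Col3a1, smaller than 1 SE in each case.

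Type V chains sit inside type I fibrils and set their width. Col5a1 had 59.3, 47.6, 138, 120.1 and 112 CPM in wt/wt and 105, 124, 108 and 157 CPM in ko/ko. Col5a2 had 344, 319.9, 757, 726 and 682 CPM in wt/wt and 439, 648, 544 and 618 CPM in ko/ko. The groups overlapped for both, with the low values again in wt/wt 1 and 2. Col5a3, the minor chain, had 5.85, 7.69, 21.2, 25.2 and 20.3 CPM in wt/wt and 26.0, 22.3, 26.4 and 29.4 CPM in ko/ko, and its log2 fold change of 0.70 (SE 0.38) had an adjusted p of 0.410. Col24a1, a minor fibrillar chain, had 5.24, 3.65, 4.25, 2.69 and 4.09 CPM in wt/wt and 6.71, 6.88, 4.08 and 5.21 CPM in ko/ko (adjusted p = 0.389 in edgeR).

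Chains known from cartilage were among the more abundant. Col2a1 (chromosome 15, 97975602 to 98004695, minus strand), the type II chain, had 311, 191, 716, 514 and 572 CPM in wt/wt and 339, 468, 396 and 660.2 CPM in ko/ko. Per kilobase it ranked 7 of the 44 genes, and its ratio to Col1a1 per kilobase ran from 0.331 to 1.08, highest in wt/wt 1. Col11a1 had a mean of 282 CPM and Col11a2 of 88.6 CPM, with log2 fold changes of 0.14 (SE 0.23) and -0.11 (SE 0.16). Chad, Fmod and Comp, matrix proteins of cartilage and tendon, had means of 3168, 4431 and 1256 CPM. None of the 8 cartilage and tendon markers had an unadjusted p under 0.05, beside 15.3% of all genes.

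Of the basement membrane chains, 0 of 6 had an unadjusted p under 0.05, beside 15.3% of all genes. Col4a1 (chromosome 8, 11198423 to 11312826, minus strand) and Col4a2 (11312805 to 11449287, plus strand) encode the common type IV network, and their annotated starts overlap head to head by 22 bases. Col4a1 had 33.1, 49.4, 102, 115 and 91.9 CPM in wt/wt and 76.3, 124, 84.5 and 96.8 CPM in ko/ko. Col4a2 had 37.2, 41.5, 90.2, 98.1 and 100.7 CPM in wt/wt and 40.6, 80.3, 71.8 and 83.2 CPM in ko/ko. The 2 chains stood near 1 to 1 per kilobase, with ratios of 0.789 to 1.06 in wt/wt and 1.03 to 1.67 in ko/ko. The chains Col4a3 to Col4a6 were far lower, with means of 2.02, 5.34, 4.28 and 0.626 CPM. Col4a4 had 2.44, 5.38, 5.23, 4.02 and 2.62 CPM in wt/wt and 13.6, 3.26, 5.81 and 5.76 CPM in ko/ko, where ko/ko 1 stood apart from the other 8 libraries. Col4a5 had 0.305, 2.98, 3.96, 4.78 and 3.31 CPM in wt/wt and 7.63, 6.52, 4.08 and 5.01 CPM in ko/ko, so that wt/wt 1 stood alone near 0. Their adjusted p-values in edgeR were 0.357 for Col4a4 and 0.437 for Col4a5. Col4a6 had 0 counts in ko/ko 2.

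Multiplexins are collagens of basement membrane zones whose ends can be cut off as separate fragments, endostatin in the case of Col18a1. Col18a1 (chromosome 10, 77052178 to 77166548, minus strand) had 28.3, 33.6, 29.6, 31.5 and 32.3 CPM in wt/wt and 11.8, 16.5, 22.3 and 22.5 CPM in ko/ko. Every ko/ko library lay under every wt/wt library. The log2 fold change was -0.77 (SE 0.20), with the smallest adjusted p of the collagen genes, 0.151, which did not pass the threshold. DESeq2 gave an adjusted p of 0.0169 and weighted voom 0.0242. The unadjusted p in edgeR stayed under 0.05 when any 1 of the 9 libraries was left out, as it also did for Col10a1 and Col9a3. Col18a1 was not among the genes low in wt/wt 1, wt/wt 2 and ko/ko 1, since wt/wt 2 was its highest library. The 5 lymphatic endothelial markers were all lower at an unadjusted p under 0.05, beside 6.42% of all genes. None was called by edgeR, with a smallest adjusted p of 0.0951. They summed to 250.3 to 780.4 CPM in wt/wt and 122 to 194 CPM in ko/ko. The 8 blood endothelial markers summed to 190.1 to 351 CPM in wt/wt and 185 to 331 CPM in ko/ko. Of these 8, 3 had an unadjusted p under 0.05 in edgeR, beside 15.3% of all genes, and none was called. Flt1 was higher in ko/ko (log2 fold change 1.45, SE 0.35), and Emcn (-0.86, SE 0.30) and Tie1 (-0.66, SE 0.21) were lower. Neither list had a gene at 0 in every library, and their part in the Col18a1 values was not tested. Col15a1, the other multiplexin, had 4.53, 2.88, 15.8, 13.5 and 12.1 CPM in wt/wt and 7.34, 20.1, 12.7 and 15.4 CPM in ko/ko, and its log2 fold change was 0.51 (SE 0.46).

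Type VI chains form beaded microfilaments around cells. Col6a1 (chromosome 10, 76708792 to 76726168, minus strand) had 1010, 727, 2002, 1957 and 1880 CPM in wt/wt and 562, 1284, 1109 and 1482 CPM in ko/ko. Col6a2 had 569.8, 412, 1184, 1188 and 1198 CPM in wt/wt and 411, 680.2, 672 and 979.8 CPM in ko/ko. Both were highest in wt/wt 3, 4 and 5, above all 4 ko/ko libraries, while wt/wt 1 and 2 lay among the ko/ko values. Col6a3 had 344, 243, 592, 493 and 386 CPM in wt/wt and 329, 505, 424 and 699 CPM in ko/ko. Log2 fold changes were -0.45 (SE 0.35), -0.41 (SE 0.35) and 0.25 (SE 0.27), and none had an unadjusted p under 0.05. Of the chains that can take the place of alpha-3, Col6a6 had 0.407, 1.54, 5.08, 2.44 and 4.41 CPM in wt/wt and 3.87, 9.87, 5.01 and 7.23 CPM in ko/ko, with an adjusted p of 0.331. Col6a5 averaged 1.11 CPM, with 0 counts in wt/wt 2, and Col6a4 ranged from 0.0977 to 1.27 CPM.

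Col10a1 (chromosome 10, 34389981 to 34397085, plus strand) encodes the type X chain, known from hypertrophic cartilage and grouped with type VIII by its short helix. It had 16.5, 10.9, 14.0, 16.5 and 11.8 CPM in wt/wt and 6.65, 9.28, 7.36 and 9.96 CPM in ko/ko. The groups did not overlap, and the closest pair were wt/wt 2 and ko/ko 4. The log2 fold change was -0.74 (SE 0.21) with an adjusted p of 0.168 in edgeR, 0.0323 in DESeq2 and 0.0298 in weighted voom. Its exons overlap Nt5dc1 on the opposite strand over 18 bases, and strand handling of the counts is not given. Col8a2 showed no such gap, with 119 to 279.6 CPM in wt/wt and 152 to 241 CPM in ko/ko.

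FACIT collagens lie on the surface of fibrils, and type IX does so on type II fibrils. Col9a3 (chromosome 2, 180597790 to 180622189, plus strand) had 265, 219, 318, 355 and 427 CPM in wt/wt and 118, 180.4, 209 and 225 CPM in ko/ko. Only wt/wt 2 and ko/ko 4 crossed. The log2 fold change was -0.79 (SE 0.23) with an adjusted p of 0.184 in edgeR, 0.0401 in DESeq2 and 0.0188 in weighted voom. Its exons overlap Tcfl5 on the opposite strand over 234 bases. Col9a2 had 114, 85.3, 132, 159 and 198 CPM in wt/wt and 42.6, 109.9, 94.1 and 119 CPM in ko/ko (log2 fold change -0.59, SE 0.31). Col9a1 had 240.3, 186, 464, 439 and 457 CPM in wt/wt and 134, 331, 306 and 335 CPM in ko/ko (log2 fold change -0.37, SE 0.33). All 3 type IX chains thus had a negative fold change, with ko/ko 1 the lowest library of each, and none was called by edgeR. Col2a1, which type IX covers in cartilage, had a log2 fold change of 0.01 (SE 0.34).

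Col12a1 and Col14a1, FACITs of type I fibrils, had the opposite sign. Col12a1 had 31.5, 36.4, 85.9, 50.5 and 51.4 CPM in wt/wt and 40.7, 80.1, 68.9 and 104 CPM in ko/ko. Col14a1 had 8.19, 14.7, 64.9, 31.0 and 27.5 CPM in wt/wt and 23.0, 85.4, 32.2 and 66.7 CPM in ko/ko. The groups overlapped for both, and neither had an unadjusted p under 0.05. Col16a1 averaged 194 CPM, with a log2 fold change of -0.26 (SE 0.26). Col19a1, Col20a1 and Col22a1 averaged 1.05, 8.17 and 0.616 CPM. Col19a1 had 1.32, 0.865, 0.537, 0.203 and 0.505 CPM in wt/wt and 2.72, 1.18, 1.03 and 1.11 CPM in ko/ko (adjusted p = 0.352 in edgeR).

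The transmembrane collagens are carried on the cell surface. Col23a1 (chromosome 11, 51289920 to 51583918, plus strand) had 8.90, 11.3, 9.57, 7.12 and 8.54 CPM in wt/wt and 12.4, 13.1, 11.5 and 14.0 CPM in ko/ko. Each ko/ko library was above each wt/wt library, with wt/wt 2 and ko/ko 3 close together. It was the only collagen gene that was higher at an unadjusted p under 0.05, with a log2 fold change of 0.49 (SE 0.18) and an adjusted p of 0.252. DESeq2 gave 0.127 and weighted voom 0.0451. Without wt/wt 4, or without ko/ko 4, the unadjusted p of Col23a1 in edgeR was no longer under 0.05.

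Col17a1 (chromosome 19, 47646344 to 47692094, minus strand) had 29.1, 93.5, 37.9, 40.0 and 44.03 CPM in wt/wt and 90.2, 34.1, 68.1 and 43.8 CPM in ko/ko. It was highest in wt/wt 2, ko/ko 1 and ko/ko 3, which were also the 3 highest libraries of the basal keratinocyte marker sum, with 3228, 2569 and 2753 CPM. Its log2 fold change was 0.27 (SE 0.36). Col13a1 had 1.12, 2.84, 4.64, 5.29 and 4.96 CPM in wt/wt and 0.809, 3.44, 3.52 and 2.58 CPM in ko/ko, and Col25a1 ranged from 6.61 to 16.7 CPM.

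Col7a1 (chromosome 9, 108953586 to 108984875, plus strand), the anchoring fibril chain, had 19.7, 16.9, 18.8, 16.7 and 17.3 CPM in wt/wt and 24.1, 12.9, 20.01 and 14.1 CPM in ko/ko. The means were 17.9 ± 1.29 CPM (SD, n = 5) and 17.8 ± 5.25 CPM (SD, n = 4). The ko/ko libraries thus lay on both sides of the wt/wt range, and the log2 fold change was -0.01 (SE 0.20). Col28a1 averaged 6.504 CPM. Col26a1 had 0.509, 0.192, 0.293, 0.610 and 0.184 CPM in wt/wt and 1.39, 0.0906, 0.422 and 1.01 CPM in ko/ko, only a few counts in each library.

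**Figure D4:**
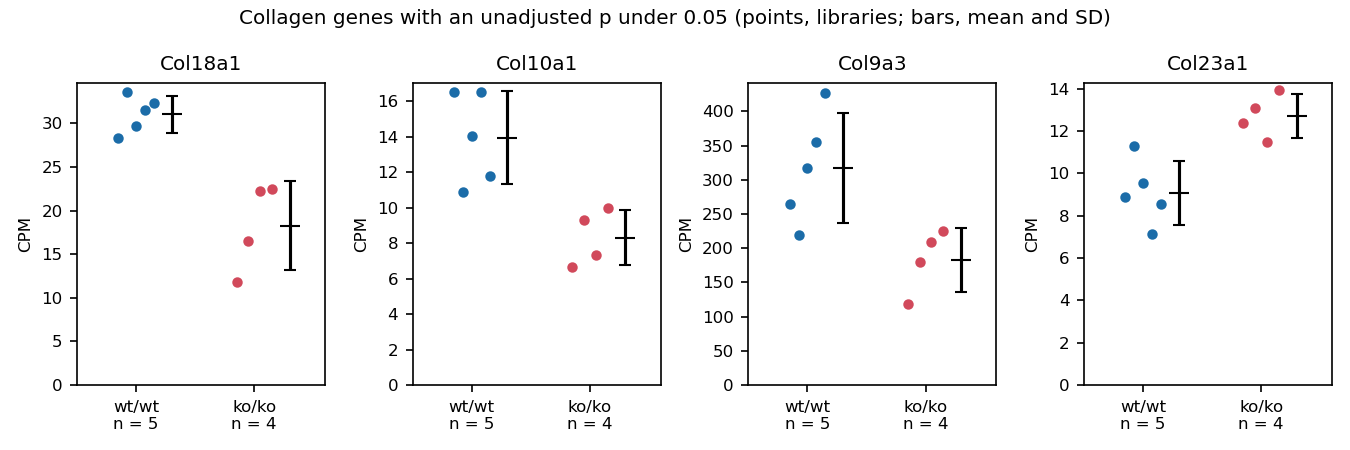
CPM in each library of the 4 collagen genes with an unadjusted p under 0.05 (points, libraries; bars, mean and SD; 5 wt/wt in blue, 4 ko/ko in red). Col18a1 and Col10a1 are lower and Col23a1 higher in every ko/ko library, while Col9a3 overlaps between wt/wt 2 and ko/ko 4.

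When wt/wt 1, wt/wt 2 and ko/ko 1 were left out, a choice made after their collagen levels were seen, edgeR called 9 of 44 collagen genes (20.5%), 1 higher and 8 lower, beside 13.4% of all genes, 8.4% higher and 5.02% lower. Since a collagen level chose these libraries, the counts describe the remaining 3 and 3 libraries and support no result. Among these 6, all 3 ko/ko libraries have lower title numbers than the 3 wt/wt libraries, so the order of numbers and the genotype cannot be told apart there. Lower in ko/ko were Col9a1, Col9a2, Col9a3, Col10a1, Col18a1, Col20a1, Col6a1 and Col6a2. Col27a1 was higher, with a log2 fold change of 1.01 and an adjusted p of 0.00611 (124, 98.2 and 90.9 CPM in wt/wt 3 to 5 and 171, 229 and 229 CPM in ko/ko 2 to 4). With all 9 libraries its log2 fold change was 0.39 (SE 0.44). The type I and III chains were not called, with values of -0.39 for Col1a1, -0.02 for Col1a2 and -0.34 for Col3a1.

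Collagen chains, most of them partners in a trimer or fibril, were compared within each library as ratios per kilobase of exon, with no test. Of the 11 ratios computed, those planned were Col1a1/Col1a2, Col3a1/Col1a1, Col4a1/Col4a2, Col6a1/Col6a2 and Col5a1/Col5a2. The other ratios, Col6a3 to Col6a1 among them, were not planned. Col1a1 to Col1a2 ran from 0.689 to 1.34 and Col3a1 to Col1a1 from 1.07 to 1.44, although each gene alone varied more widely between libraries. Col6a1 to Col6a2 ran from 2.60 to 3.59. Col5a1 to Col5a2 was 0.195, 0.168, 0.206, 0.187 and 0.185 in wt/wt and 0.270, 0.216, 0.224 and 0.287 in ko/ko, and the groups did not overlap. Col6a3 to Col6a1, a ratio chosen after the levels were seen, was 0.125, 0.122, 0.108, 0.0922 and 0.0753 in wt/wt and 0.215, 0.144, 0.140 and 0.173 in ko/ko, again without overlap. The groups overlapped for every other ratio computed. How often ratios of other gene pairs separate the groups was not computed, so these gaps only describe the libraries.

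**Figure D5:**
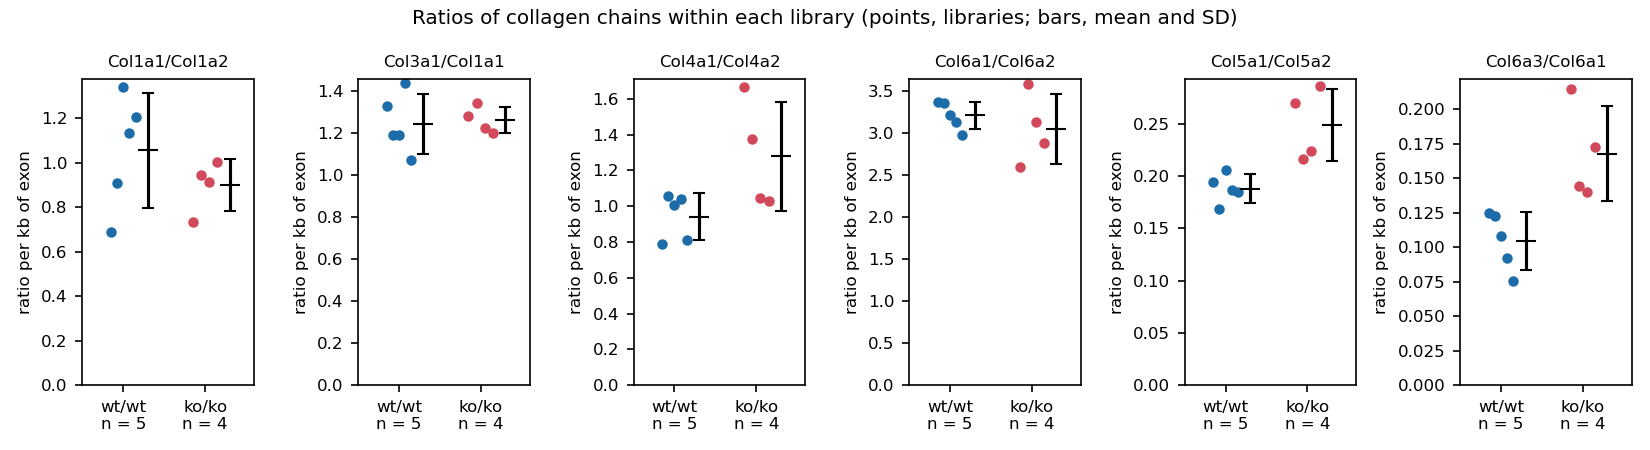
Ratio of 6 pairs of collagen chains per kilobase of exon in each library (points; bars, mean and SD; 5 wt/wt in blue, 4 ko/ko in red). The 2 groups do not overlap for Col5a1/Col5a2 and Col6a3/Col6a1, and overlap for the other 4. No share over other gene pairs was computed.

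Fold changes of collagen genes went with exon length. Over the 43 genes Spearman's rho between log2 fold change and exon length was 0.49, and over all 18435 genes it was 0.16, both across genes that share the same libraries and are not independent. Of the 21 collagen genes with exons shorter than 7013 bases, 14 had a negative fold change, with a median of -0.12, and of the 22 others 15 had a positive one, with a median of 0.33. Over all genes tested the 2 medians were -0.06 and 0.17. With the length trend of each library removed, the collagen median was -0.16 and that of all genes -0.095, against 0.01 and -0.03 as reported. The same 4 genes had an unadjusted p under 0.05 in that fit, beside 16.3% of all genes. Col6a3 and Col6a1 then had log2 fold changes of -0.03 and -0.49, against 0.25 and -0.45 as reported. Col5a1 and Col5a2 had 0.19 and -0.24, against 0.37 and -0.01.

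The enzymes and chaperones that make collagen were also described. Of 35 genes for synthesis, processing and crosslinking, 34 were tested and 0 were called by edgeR; 7 (20.6%) had an unadjusted p under 0.05, 3 higher and 4 lower, beside 15.3% of all genes, 8.86% higher and 6.42% lower. Loxl4, a lysyl oxidase that crosslinks collagen, had 237, 123, 174, 147 and 120.0 CPM in wt/wt and 82.9, 87.6, 99.4 and 102 CPM in ko/ko. The groups did not overlap, and the log2 fold change was -0.79 (SE 0.21) with an adjusted p of 0.154 in edgeR, 0.0197 in DESeq2 and 0.0242 in weighted voom. Creb3l1, a transcription factor known to drive collagen genes, had 8.95, 10.5, 21.2, 14.2 and 15.61 CPM in wt/wt and 18.2, 33.3, 20.2 and 35.3 CPM in ko/ko (adjusted p = 0.194 in edgeR). Serpinh1, the collagen chaperone HSP47, had 22.0, 16.7, 45.9, 32.8 and 33.5 CPM in wt/wt and 40.2, 54.4, 36.6 and 53.2 CPM in ko/ko. P3h3, a prolyl 3-hydroxylase, had a log2 fold change of 0.48 (SE 0.16). P3h2, another prolyl 3-hydroxylase, had -0.61 (SE 0.22), Adamts14, an N-propeptidase, -0.44 (SE 0.19), and Pcolce2, an enhancer of C-propeptide cleavage, -0.59 (SE 0.27). P4ha1, Plod2 and Lox, for prolyl hydroxylation, lysyl hydroxylation and crosslinking, had -0.17 (SE 0.16), 0.06 (SE 0.17) and -0.22 (SE 0.37).

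Of 21 collagen receptors and turnover genes, 16 were tested and 0 were called by edgeR, while 2 (12.5%) had an unadjusted p under 0.05, both higher, beside 15.3% of all genes, 8.86% higher. Itga10, the integrin alpha-10 chain that binds type II collagen on chondrocytes, had 19.1, 25.1, 19.2, 16.4 and 15.4 CPM in wt/wt and 54.6, 32.0, 36.4 and 31.3 CPM in ko/ko. Every ko/ko library was above every wt/wt library, and the log2 fold change was 1.02 (SE 0.21) with an adjusted p of 0.127 in edgeR, 0.00195 in DESeq2 and 0.0106 in weighted voom. Mmp14, a membrane-bound collagenase, had 53.4, 42.5, 82.2, 70.9 and 64.1 CPM in wt/wt and 76.6, 107, 77.8 and 89.6 CPM in ko/ko. Itgb1, the partner of the collagen-binding alpha chains, stood at -0.37 (SE 0.29) on the log2 scale, and the receptor kinases Ddr1 and Ddr2 at -0.02 (SE 0.22) and 0.28 (SE 0.18). Itga2, a receptor chain for type I collagen, averaged 1.15 CPM. Myeloid markers also moved between the groups: all 8 were higher at an unadjusted p under 0.05, beside 8.86% of all genes, and none was called by edgeR. Their sum was 3.56 to 25.9 CPM in wt/wt and 132, 139, 54.1 and 6.98 CPM in ko/ko. Of this, Cd74 alone had 0.817 to 11.9 CPM in wt/wt and 95.4, 90.7, 31.7 and 0.607 CPM in ko/ko. The part of the myeloid markers in the receptor and turnover values was not tested.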

How the data were processed

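Raw counts of reads on each gene were deposited by the authors as 1 table, which also gives exon lengths. The submitters' processing notes name GSNAP, featureCounts 1.6.2 and mm10, and polyadenylated RNA was amplified with SMARTseq2 before tagmentation, per the labels' protocols. The table's name gives Ensembl release 87. The sources used here do not say how strand, multi-mapped reads or duplicates were treated, so overlapping or near-identical genes may share reads. Intervals of counting error were not used for calls, since amplified reads without molecular identifiers are not independent molecules.

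Left out were 92 spike-in rows, leaving 49671 gene rows, of which 49326 had a symbol in GENCODE M21. Positions are those of the table, and 43 of the 44 collagen rows have the same coordinates in M21. All pairs of libraries differed by more than sampling noise, with a smallest chi-square per degree of freedom of 23.9 (genes with at least 20 counts in a pair).

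Genes were filtered with filterByExpr, scaled with TMM and tested in edgeR 4.0.16 under R 4.3.3 (quasi-likelihood F test, robust=TRUE, two-sided), with Benjamini-Hochberg adjustment over 18435 genes and a threshold of 0.05. The script was tested on simulated data. SE was taken as the size of the log2 fold change divided by the root of F. Alternatives were other factors and filters, DESeq2 1.42.0, limma 3.58.1 voom with sample weights, robust=FALSE, removal of abundant genes, of a length trend or of a GC trend, and left-out libraries.

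The collagen genes, the gene and marker lists and the settings were chosen with earlier results of these data known, and the set without wt/wt 1, wt/wt 2 and ko/ko 1 was added after seeing the data. Named genes are a fixed list of 18 chains, all collagen genes with an unadjusted p under 0.05 and 8 others with the smallest p, and up to 8 genes of each of the other 2 lists with further fixed ones; others were chosen after their values were seen. Marker lists of mural, Schwann, hair follicle dermal and adipose cells were also computed. Per library these summed to 165 to 441, 82.8 to 449, 396 to 1447 and 66.2 to 236 CPM. Of their 26 genes 1, an adipocyte gene, had an unadjusted p under 0.05, beside 15.3% of all genes. The glycine repeats of the encoded proteins were not analysed here.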

Additional observations from a re-analysis of the deposited data

Results flagged for a closer look

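In each genotype every collagen gene was checked for a library whose gap to the nearest other was large for the range of its group. Of 86 groups, 4 had one, where chance gives about 1 in 20, or 4.3. Col4a5, a chain of type IV, had 0.305 CPM in wt/wt 1, while its other 4 values in that genotype were 2.98 to 4.78 CPM. Col9a1 of type IX had 134 CPM in ko/ko 1, against 306 to 335 CPM in the other 3. Col19a1, a FACIT chain, had 2.72 CPM in ko/ko 1, against 1.03 to 1.18 CPM. Col20a1, another FACIT chain, had 4.85 CPM in ko/ko 2, against 7.28 to 7.59 CPM.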

How the results depend on the processing

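No paired analysis was possible because the replicate numbers only follow the order of accessions and link no samples across genotypes. The count of collagen genes called was 0 in edgeR under each other factor and filter, robust=FALSE, removal of abundant genes or of a trend, each single left-out library and the set without 3 libraries rich in Gm10800 reads, 3 with DESeq2 (3.46% of all genes), 4 with weighted voom (9.77%), and 9 without the 3 libraries lowest in Col1a1 (13.4%), a set chosen after seeing the data. The count at an unadjusted p under 0.05 was 4 as reported, 8 without scaling factors (5 higher, 3 lower; 14.8% of all genes), 9 with voom (29.1%) and 17 without those 3 libraries (30.5%). It ran from 3 to 9 over single left-out libraries, where all genes ran from 10.8% to 19.9%, with 9 without wt/wt 1 (19.9%), 7 without wt/wt 2 (16.4%) and 7 without wt/wt 3 (12.6%). Synthesis genes called went from 0 to 1 with DESeq2, 2 with voom and 6 without the 3 libraries, and receptor and turnover genes from 0 to 1, 2 and 2, beside the same 3.46%, 9.77% and 13.4% of all genes. Col26a1, with a mean of 0.522 CPM, turned from a log2 fold change of 1.01 to -0.31 without the 3 libraries rich in Gm10800 reads. Those were wt/wt 1, ko/ko 1 and ko/ko 4, and the first 2 are also among the 3 lowest in Col1a1. Col26a1 had 24, 2, 9 and 20 counts in ko/ko 1 to 4, so most of its ko/ko counts were left out there. Counts of Gm10800 reads are not given here, and why those libraries held more was not tested. Of 941 gene values recomputed over 22 settings, 64 changed sign, in 19 genes, and all but that of Col26a1 were within 1 SE of 0 as reported. Without factors the median of all genes moved by 0.11 on the log2 scale, from -0.03 to 0.08. The medians and class sums moved by less than the spread between libraries. Leaving exon length out of the chain ratios cannot change their log2 difference between genotypes, so the ratios had no informative alternative. Col26a1, Col22a1, Col4a6 and Col6a4, with means under 1 CPM, rest on few counts in each library.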
